A study of Mus musculus with 32 samples.

Results

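Tendon cores cultured inside a hydrogel that held macrophages were compared with tendon cores cultured inside a hydrogel without cells. Every library labelled as a wildtype (WT) core with macrophages (n = 4) or as a WT core with a cell-free hydrogel (n = 4) was used, which made 8 of the 32 libraries of the series, and the difference was described over all 25700 genes that were counted. The series was built on assembloids, in which tail tendon fascicles (the core, which carries the tenocytes, their matrix and the cells resident between them) are clamped inside a collagen-1 hydrogel, so that the exchange between the tendon core and cells outside it can be followed. Both groups carried the intact allele of the strain B6.129S2-Il6tm1Kopf/J (Il-6+/+), came from male and female mice aged 12 to 15 weeks, and are told apart in the labels only by the cells of the hydrogel. Each library held 20 to 24 explants of 2 cm from a single mouse after 7 days in DMEM/F12 with 10% fetal bovine serum, ascorbic acid and, according to the methods, 20 ng/ml macrophage colony-stimulating factor (M-CSF). That medium was shared by both groups. The origin, strain and sex of the seeded macrophages were not given in the sources used here, and the macrophage-laden hydrogels themselves were not analysed here, so the values describe the core compartment alone. WT cores with fibroblasts in the hydrogel (n = 4) served as a second reference. Cores of Il6 knock-out (KO) mice, with a cell-free hydrogel (n = 4) or with fibroblasts (n = 4), were not compared as groups. They enter the scaling of levels, the ranges over the other cores of the series, the Y-linked values and an alternative fit of all core groups.

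Macrophages are phagocytes that clear dead cells and matrix fragments, and they respond to tissue damage with cytokines, chemokines and proteases. M-CSF acts through its receptor Csf1r and maintains their survival and division. Tendons hold resident macrophages of their own, so both groups of cores can contain macrophage RNA.

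Estimated read counts per gene summed to 20360289 to 31127686 in the libraries with macrophages and to 20627049 to 34240500 in the cell-free libraries. Levels are given in CPM (a gene's counts relative to the total of its library, on the scale of edgeR's cpm function), scaled with trimmed means over the 20 core libraries of the series. On the first principal component of the 8 libraries (46.8% of the variance) the cores with macrophages lay between 7.1 and 47.9 and the cell-free cores between -60.2 and -3.9, with macrophages replicate 1 and cell-free replicate 4 at the ends. The tendon identity of the cores was present in both groups: the summed level of 16 tendon lineage genes was 10522, 16364, 17307 and 24247 CPM in cores with macrophages, against 19675, 15628, 17913 and 26046 CPM in cell-free cores. Macrophage transcripts were abundant without any seeded cells, since the 35 genes of the macrophage identity list summed to 7566, 12264, 9588 and 17071 CPM in cores with macrophages, against 19644, 14410.3, 15925 and 19658 CPM in cell-free cores, and none of the 35 was at 0 in all 8 libraries. Cell-free replicates 2 and 3 lay below macrophages replicate 4, so the ranges overlapped, and the other macrophage libraries were lower than every cell-free library.

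Transcripts of the Y chromosome were higher in the female cores with macrophages than in the other female cores. In all 3 WT groups the summed level of Ddx3y, Eif2s3y, Kdm5d and Uty separated replicates 1 and 2 (read as female) from replicates 3 and 4 (read as male), since the labels give no sex per sample. Among the cores read as female, the 4 genes summed to 434 and 343 counts (16.2 and 10.5 CPM) with macrophages, against 13 and 2 counts (0.509 and 0.0896 CPM) without cells and 22 and 46 counts (0.64 and 1.49 CPM) with fibroblasts. The 2 values with macrophages came to 6.49% and 4.19% of the mean of the male cores of their group. The highest of the 4 female cores of the Il6-deficient groups had 103 counts (3.45 CPM). Whether the source of these transcripts has a part in the results was not tested, and the values give no share of macrophages in the core, because the sex of the seeded cells is not given.

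**Figure D1:**
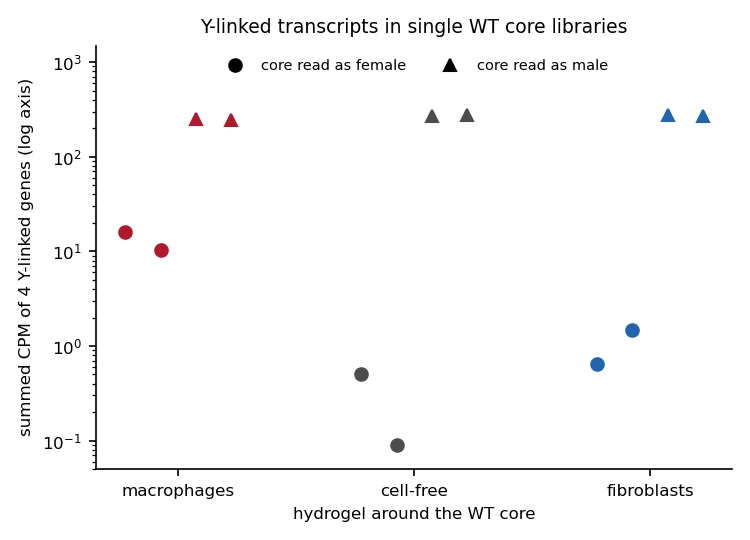
Summed level of 4 Y-linked genes (Ddx3y, Eif2s3y, Kdm5d and Uty) in each of the 12 WT core libraries, in CPM on a log axis, by the cells of the hydrogel. Circles are cores read as female and triangles cores read as male from these same genes. The 2 female cores with macrophages lie at 16.2 and 10.5 CPM, above the female cores without cells and with fibroblasts, which stay at or below 1.49 CPM.

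Of 16441 genes that passed the filter on low counts, 124 (0.754%) rose and 633 (3.85%) fell in cores with macrophages relative to cell-free cores (edgeR quasi-likelihood test, Benjamini-Hochberg adjusted p under 0.05 and a log2 fold change beyond 0.5). The remaining 15684 genes were not called, and the median log2 fold change of all genes tested was 0.005. Called or not, 8350 of all genes tested were higher (50.8%) and 8091 were lower. The counts of list members given below are to be read beside these shares. Changes beyond a log2 fold change of 1 comprised 59 increases and 349 decreases, and those beyond 2 comprised 19 increases and 54 decreases. For 115 of the 124 and 619 of the 633 called genes, levels of the 4 macrophage and 4 cell-free libraries did not overlap. The calls were made on these same levels, so the separation gives them no further weight. The share over all genes tested was not counted. With the replicate number as a block, 240 genes rose and 809 fell. The excess of decreases held in every fit that left out 1 library, but the counts depended on single libraries: they ranged from 58 increases and 233 decreases without macrophages replicate 3 to 226 and 829 without macrophages replicate 4.

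**Figure D2:**
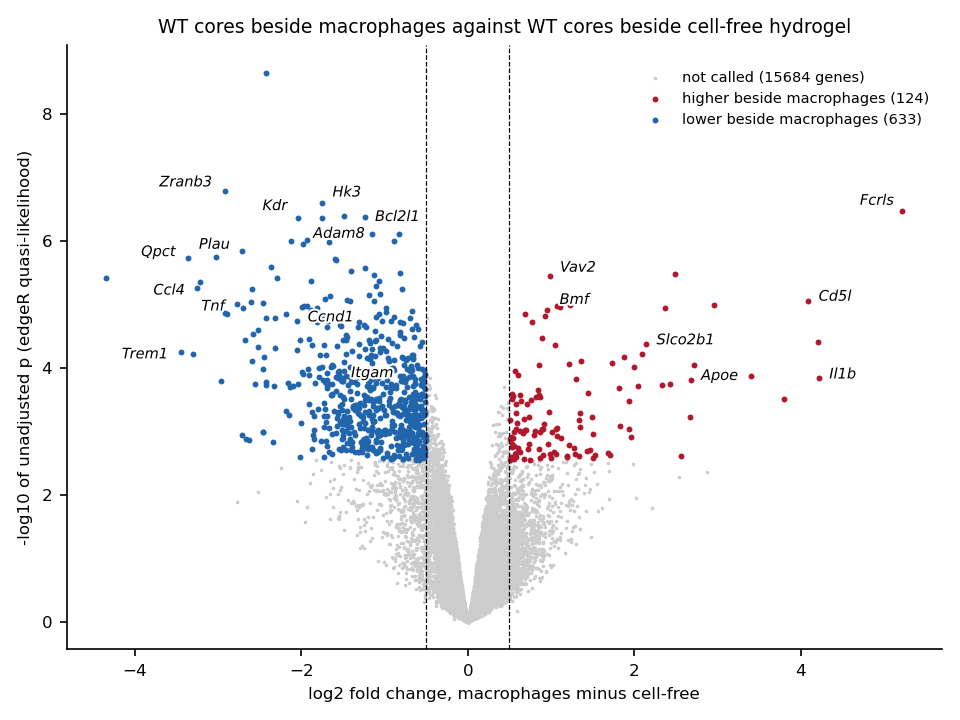
Log2 fold change of each of 16441 genes in WT cores with macrophages minus cell-free WT cores (horizontal) against -log10 of the unadjusted p of the edgeR quasi-likelihood test (vertical); red points rose (124), blue points fell (633), grey points were not called, and dashed lines mark a log2 fold change of 0.5. Fcrls (5.22) and Cd5l (4.09) lie far to the right, while Zranb3 (-2.92), Plau (-2.71) and Tnf (-2.77) are among the larger set on the left.

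Genes of macrophage biology were among the largest increases. Fcrls, an Fc receptor-like scavenger receptor known in the mouse as a marker of microglia, was at 77.1, 63.4, 61.2 and 124 CPM in cores with macrophages, against 1.88, 3.72, 2.64 and 0.634 CPM in cell-free cores (log2 fold change 5.22 ± 0.44 (SE), adjusted p = 0.000917). All 4 libraries with macrophages were far above the 16 other cores of the series, those with an Il6 deletion included, which had 0.563 to 5.3 CPM. Cd5l, a secreted scavenger protein of tissue macrophages that protects them from apoptosis, stood at 11.8, 16.5, 21.8 and 49.5 CPM in cores with macrophages, against 1.45, 1.25, 2.25 and 0.825 CPM in cell-free cores (log2 fold change 4.09 ± 0.49 (SE), adjusted p = 0.0033). The lowest level with macrophages exceeded the highest of the 16 other cores (2.25 CPM). Apoe, the apolipoprotein with which macrophages export cholesterol, was the most abundant of these genes, at 912, 1059, 1138 and 2436 CPM in cores with macrophages, against 167, 237, 366 and 92.4 CPM in cell-free cores (log2 fold change 2.68 ± 0.46 (SE), adjusted p = 0.0108). Replicate 4 had the highest level with macrophages for all 3 genes, and cell-free replicate 4 had the lowest level without cells.

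Fcrls and Cd5l both lie on chromosome 3, and their promoters are shown because both genes were low in every core without seeded macrophages. The RefSeq promoter windows (GRCm38.p6, 250 bases before to 50 after the start) span chr3:87263475-87263774 (minus strand) for Fcrls and chr3:87357631-87357930 (plus strand) for Cd5l. Capitals mark GAGGAA or its reverse complement TTCCTC, the core of the site bound by PU.1 (the product of Spi1, the factor that directs macrophage differentiation).
Fcrls: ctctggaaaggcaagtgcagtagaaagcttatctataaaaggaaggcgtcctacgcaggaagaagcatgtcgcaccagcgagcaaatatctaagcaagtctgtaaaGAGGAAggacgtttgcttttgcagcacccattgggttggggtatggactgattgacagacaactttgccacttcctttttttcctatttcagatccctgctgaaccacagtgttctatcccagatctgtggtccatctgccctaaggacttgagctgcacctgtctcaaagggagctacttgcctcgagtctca
Cd5l: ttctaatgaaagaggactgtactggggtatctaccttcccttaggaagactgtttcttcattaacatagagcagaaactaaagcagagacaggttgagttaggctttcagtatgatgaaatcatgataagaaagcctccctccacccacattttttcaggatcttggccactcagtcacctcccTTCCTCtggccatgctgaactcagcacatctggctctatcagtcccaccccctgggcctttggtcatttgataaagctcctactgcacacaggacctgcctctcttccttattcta
Each window held the motif 1 time, on the strand of transcription in Fcrls and on the opposite strand in Cd5l. A match is only a description of the letters, and GAGGAA is present in 28.3% of the 27025 promoters of the table.

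Of the further genes that rose, Slco2b1 and Treml2 were named for their p or size and Csf3r as a member of the neutrophil list. Il1b and Clec10a, members of the macrophage activation lists described below, were named after their values were seen. Csf3r, the receptor for granulocyte colony-stimulating factor, was at 26.5, 18.6, 17.7 and 31.5 CPM in cores with macrophages, against 10.2, 6.36, 7.47 and 4.31 CPM in cell-free cores (log2 fold change 1.73 ± 0.27 (SE), adjusted p = 0.00828). It was the 1 member of the 5 tested neutrophil markers that rose. S100a8, the other called member and a calcium-binding protein that neutrophils hold in bulk, was lower at 0.145 to 0.518 CPM with macrophages and 0.538 to 1.52 CPM without cells (adjusted p = 0.0427, 0.0793 with the replicate block, call lost in 6 of 8 fits without 1 library, adjusted p up to 0.149). The groups were apart for both genes. Slco2b1, an organic anion transporter, had 5.08, 4.85, 5.53 and 9.32 CPM with macrophages and 1.37, 2.2, 1.06 and 1.02 CPM without cells (log2 fold change 2.14 ± 0.31 (SE), adjusted p = 0.00584). Treml2, an immunoreceptor of myeloid and B cells, had 4.89, 3.6, 2.15 and 5.79 CPM with macrophages and 1.29, 1.34, 1.19 and 0.825 CPM without cells (log2 fold change 1.81 ± 0.32 (SE), adjusted p = 0.0117). Clec10a, a galactose-binding lectin of macrophages and dendritic cells, averaged 12.4 ± 5.04 CPM with macrophages and 4.29 ± 1.64 CPM without cells (SD, n = 4 each, adjusted p = 0.0294, call lost in 4 of 8 fits without 1 library, adjusted p up to 0.0962). The call of Clec10a depended on single libraries. Il1b, which encodes interleukin-1 beta, was nearly absent from cell-free cores, with at most 7 counts in a library, and stood at 4.55, 0.945, 2.02 and 4.63 CPM in cores with macrophages, against 0.157, 0.269, 0.231 and 0 CPM in cell-free cores (log2 fold change 4.22 ± 0.71 (SE), adjusted p = 0.0107). The levels of all these genes were apart between the 2 groups.

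A second set of increases comprised signalling, metabolic and immune genes. Vav2, a guanine nucleotide exchange factor, showed a small and even difference, 32.8, 26.6, 26.3 and 31.3 CPM in cores with macrophages, against 14.1, 14.3, 16.3 and 14.4 CPM in cell-free cores (log2 fold change 0.98 ± 0.11 (SE), adjusted p = 0.00219). Grk3, a kinase that turns off G protein-coupled receptors, had 8.96, 5, 3.71 and 5.84 CPM with macrophages and 0.626, 0.851, 1.12 and 0.412 CPM without cells (log2 fold change 2.95 ± 0.36 (SE), adjusted p = 0.0033). Cd38, which breaks down nicotinamide adenine dinucleotide, had 6.79, 5.46, 6.73 and 5.89 CPM with macrophages and 1.49, 1.79, 2.58 and 0.856 CPM without cells (log2 fold change 1.88 ± 0.29 (SE), adjusted p = 0.00748). The groups did not overlap for these 3 genes. Tgm2, a transglutaminase that cross-links proteins, had 179.8, 187, 190.2 and 190.3 CPM with macrophages and 89.7, 112, 121 and 116 CPM without cells (log2 fold change 0.77 ± 0.10 (SE), adjusted p = 0.00377). Angptl4, a secreted inhibitor of lipoprotein lipase that responds to fatty acids and to hypoxia, had 193, 265, 276 and 323 CPM with macrophages and 99.5, 72.5, 143 and 96.7 CPM without cells (log2 fold change 1.36 ± 0.21 (SE), adjusted p = 0.00786). Angptl4 and the glycolytic activator Pfkfb3 (log2 fold change 0.63, adjusted p = 0.028, call lost in 6 of 8 fits without 1 library, adjusted p up to 0.077) were the 2 of 27 tested hypoxia genes that rose, and none fell (with the replicate block Slc2a1 fell). Ighm, the heavy chain of immunoglobulin M, rose to 12.3 ± 1.86 CPM with macrophages, against 5.26 ± 0.679 CPM without cells (SD, n = 4 each, adjusted p = 0.0033), while none of the 3 tested markers of T, B and natural killer cells was called.

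Of 3 genes that act on mitochondrial apoptosis and were named for their low p, 1 fell and 2 rose. Other regulators of apoptosis were not counted. Bcl2l1, which encodes the survival factor Bcl-xL, was at 38.1, 41.4, 32.1 and 34.6 CPM in cores with macrophages, against 81.5, 86.5, 75.4 and 102 CPM in cell-free cores (log2 fold change -1.24 ± 0.11 (SE), adjusted p = 0.000917). The pro-apoptotic BH3-only gene Bmf was at 43.5, 42.4, 54.8 and 54.9 CPM in cores with macrophages, against 27.1, 27, 24.4 and 22.4 CPM in cell-free cores (log2 fold change 0.95 ± 0.12 (SE), adjusted p = 0.00341). Bcl2l11, which encodes the BH3-only protein Bim, was at 41.2, 32.3, 37.5 and 44.5 CPM in cores with macrophages, against 21.8, 21.3, 20.5 and 18.1 CPM in cell-free cores (log2 fold change 0.93 ± 0.12 (SE), adjusted p = 0.00366). For all 3 genes the 4 macrophage libraries lay outside the range of the 16 other cores, which was 62.3 to 102 CPM for Bcl2l1, 19.3 to 33 CPM for Bmf and 17.4 to 28 CPM for Bcl2l11. The call of each of the 3 was kept in all 8 fits without 1 library. The genes were chosen for their low p in these same libraries. Their separation from the cell-free cores and the kept calls therefore give no further weight.

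**Figure D3:**
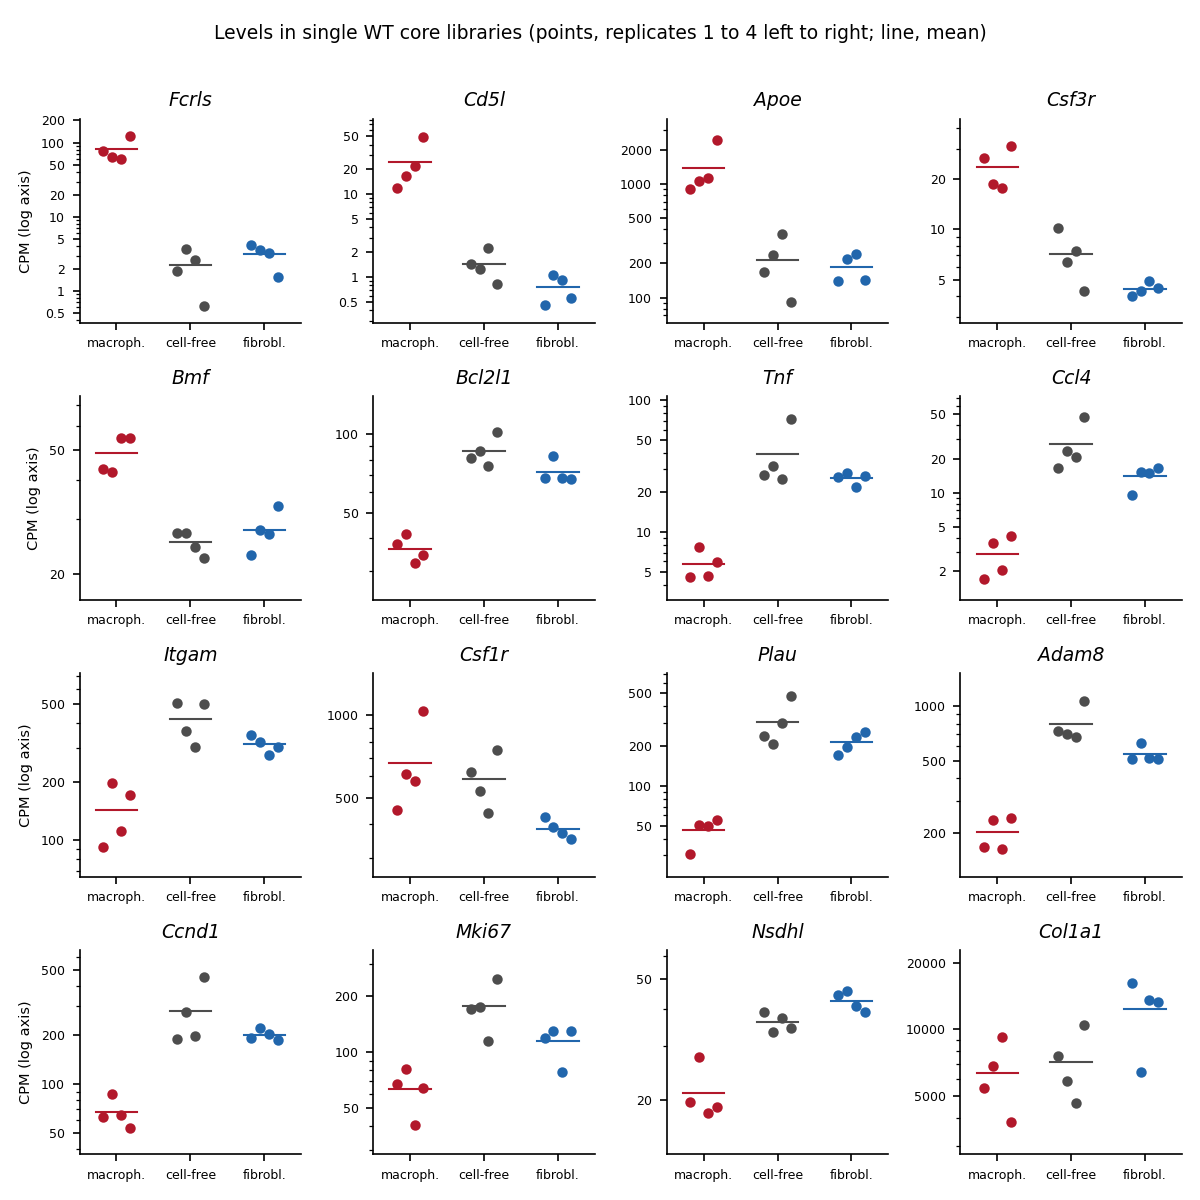
Level of 16 genes in each WT core library, in CPM on log axes that differ between panels, for cores with macrophages (red), cell-free cores (grey) and cores with fibroblasts (blue); points are libraries, replicates 1 to 4 from left to right, and lines are group means (n = 4 each). In all 4 macrophage libraries Fcrls, Cd5l, Apoe, Csf3r and Bmf lie above, and Bcl2l1, Tnf, Ccl4, Itgam, Plau, Adam8, Ccnd1, Mki67 and Nsdhl below, the 4 cell-free libraries, while Csf1r and Col1a1 overlap.

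General macrophage genes did not rise in cores with macrophages. Of the 35 members of the macrophage identity list none rose, 11 fell and 24 were not called, and the median log2 fold change was -0.59, with 29 members lower, against 0.005 over all genes tested. In bulk tissue, fewer macrophages and less RNA per macrophage cannot be told apart. Itgam, the alpha chain of the integrin CD11b, was at 92.1, 198, 112 and 172 CPM in cores with macrophages, against 510.4, 363, 301 and 505 CPM in cell-free cores (log2 fold change -1.55 ± 0.25 (SE), adjusted p = 0.00947). Its beta chain Itgb2 averaged 155 ± 47.8 CPM with macrophages and 360.0 ± 82.1 CPM without cells (SD, n = 4 each, adjusted p = 0.0143), the adhesion receptor Cd84 averaged 130.4 ± 35.1 CPM with macrophages and 258 ± 26.5 CPM without cells (adjusted p = 0.0114) and the actin-bundling protein Lcp1 averaged 324 ± 105 CPM with macrophages and 767 ± 178 CPM without cells (adjusted p = 0.0168). Without macrophages replicate 3, the adjusted p of these 3 genes was 0.0619 for Itgb2, 0.0512 for Cd84 and 0.0697 for Lcp1. The number of members that fell depended on the libraries in the fit: it was 1 without macrophages replicate 3, 4 without cell-free replicate 1 or replicate 4, 5 without cell-free replicate 2, 7 without macrophages replicate 1 or replicate 2, and 20 without macrophages replicate 4. With no library left out, 15 fell with the replicate block, 15 with DESeq2 and 16 with the run code as a block.

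Several defining macrophage genes were not called. Csf1r, the M-CSF receptor, was at 452, 611, 578 and 1038 CPM in cores with macrophages, against 622, 528, 439.9 and 744 CPM in cell-free cores (log2 fold change 0.20 ± 0.25 (SE), adjusted p = 0.664). C1qa, a chain of complement C1q, had 282 to 759 CPM with macrophages and 439.6 to 605 CPM without cells (adjusted p = 0.886), and Mertk, a receptor for apoptotic cells, had 75.7 to 105 CPM with macrophages and 63.9 to 91.9 CPM without cells (adjusted p = 0.65). Adgre1, which encodes F4/80, had 215 to 509.6 CPM with macrophages and 401 to 635 CPM without cells (adjusted p = 0.288), and Lyz2, the lysozyme of macrophages, had 3214 to 7426 CPM with macrophages and 6433 to 9338 CPM without cells (adjusted p = 0.219). Cd68, a lysosomal glycoprotein, had 163 to 462 CPM with macrophages and 409 to 561 CPM without cells and was not called (adjusted p = 0.118), but it was called lower with the replicate block (log2 fold change -0.92, adjusted p = 0.0428), with DESeq2 (0.0335), with the run code as a block (0.0267) and without macrophages replicate 4 (0.00811). Of 11 tested markers of tissue-resident macrophages, 1 fell: Folr2, a folate receptor, at 11.5, 30.4, 24.3 and 30.9 CPM in cores with macrophages, against 81.2, 66, 67.2 and 113 CPM in cell-free cores (log2 fold change -1.75 ± 0.28 (SE), adjusted p = 0.00898).

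Itgam carries the same PU.1 core in its promoter (chr7:128062390-128062689 (plus strand), GRCm38.p6), shown because it led the macrophage identity list. Capitals mark GAGGAA or TTCCTC.
Itgam: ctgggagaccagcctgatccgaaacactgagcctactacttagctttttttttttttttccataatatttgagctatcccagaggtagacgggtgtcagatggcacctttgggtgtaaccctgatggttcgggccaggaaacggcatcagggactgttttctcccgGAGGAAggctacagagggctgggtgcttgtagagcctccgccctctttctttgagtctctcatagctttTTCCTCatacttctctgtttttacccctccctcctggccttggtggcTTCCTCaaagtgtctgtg
The motif occurred 3 times in this window, on both strands. It was present in 19 of the 25 promoters of the macrophage identity list that the table held (76.0%), beside 28.3% of all promoters.

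Genes of classical, inflammatory macrophage activation were mostly lower, while those of alternative activation went both ways. Of 18 tested genes of classical activation, 5 fell and 1, Il1b, rose, with a median log2 fold change of -0.63. Tnf, the tumour necrosis factor gene, was at 4.59, 7.65, 4.62 and 5.99 CPM in cores with macrophages, against 27.2, 31.9, 25.3 and 72 CPM in cell-free cores (log2 fold change -2.77 ± 0.34 (SE), adjusted p = 0.0033). Acod1, which makes the antimicrobial metabolite itaconate, was at 2.57, 6.401, 3.12 and 3.19 CPM in cores with macrophages, against 21, 26.9, 17.6 and 49.5 CPM in cell-free cores (log2 fold change -2.90 ± 0.37 (SE), adjusted p = 0.00352). Every library with macrophages lay below every cell-free library for both genes, and cell-free replicate 4 was the highest. Marco, a scavenger receptor for bacteria, had 28 to 87.5 CPM with macrophages and 155 to 286 CPM without cells (adjusted p = 0.00653), and Cd40, a costimulatory receptor, had 1.57 to 2.85 CPM with macrophages and 5.33 to 8.6 CPM without cells (adjusted p = 0.00406). The costimulatory ligand Cd80 completed the 5 (log2 fold change -0.72, adjusted p = 0.0482, call lost in 7 of 8 fits without 1 library, adjusted p up to 0.16). Of 10 tested genes of alternative activation, 5 fell and 2, Tgm2 and Clec10a, rose. Called or not, 5 of the 10 were higher and 5 lower, with a median log2 fold change of -0.57. With no filter on low counts 16 were tested and the median was 0.23. When 1 library was left out the decreases ranged from 3 (without macrophages replicate 1, 2 or 3 or cell-free replicate 2 or 4) to 5, and the increases from 1 (without cell-free replicate 1, 2 or 4 or macrophages replicate 3) to 3 (without cell-free replicate 3). Msr1, the class A scavenger receptor, was at 63.6, 127, 86.9 and 117 CPM in cores with macrophages, against 558, 389.6, 389 and 690.5 CPM in cell-free cores (log2 fold change -2.36 ± 0.25 (SE), adjusted p = 0.00201). Il1rn, which encodes the antagonist of the interleukin-1 receptor, was at 5.37, 5.46, 8.82 and 6.42 CPM in cores with macrophages, against 18, 23.4, 23.2 and 39.6 CPM in cell-free cores (log2 fold change -2.0 ± 0.25 (SE), adjusted p = 0.0033). The haem oxygenase Hmox1 had 196 to 388 CPM with macrophages and 532 to 1002 CPM without cells (adjusted p = 0.00805). The lectin Mgl2 (log2 fold change -2.67, adjusted p = 0.0322, call lost in 5 of 8 fits without 1 library, adjusted p up to 0.09) and the elastase Mmp12 also fell.

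Further genes that fell were named for their p or size and form no list. Hk3, the hexokinase typical of myeloid cells, was at 38.1, 55, 37.6 and 52.7 CPM in cores with macrophages, against 150.1, 139.5, 143 and 184 CPM in cell-free cores (log2 fold change -1.75 ± 0.14 (SE), adjusted p = 0.000917). Cd180, a Toll-like receptor homologue, had 13.1, 17.5, 13.8 and 19 CPM with macrophages and 45, 44.5, 38.7 and 49.4 CPM without cells (log2 fold change -1.49 ± 0.13 (SE), adjusted p = 0.000917). Lat2, a membrane adaptor of immune receptors, had 14.1, 26.8, 15.9 and 19 CPM with macrophages and 79.7, 77, 66.2 and 108 CPM without cells (log2 fold change -2.13 ± 0.20 (SE), adjusted p = 0.00122). None of the libraries with macrophages reached 78.6, 25.5 or 41.5 CPM, the lowest levels of Hk3, Cd180 and Lat2 in the 16 other cores. Trem1, a receptor that amplifies inflammation, had 0.709, 1.58, 0.423 and 0.579 CPM with macrophages and 6.61, 11.3, 3.5 and 15.6 CPM without cells (log2 fold change -3.45 ± 0.52 (SE), adjusted p = 0.00684). Klra2, a lectin-like receptor of the Ly49 family whose near-identical relatives make its counts uncertain, had 0.485, 1.55, 0.781 and 0.676 CPM with macrophages and 8.77, 6.14, 6.31 and 7.77 CPM without cells (log2 fold change -3.02 ± 0.31 (SE), adjusted p = 0.00169). Qpct, which cyclizes the amino-terminal glutamine of chemokines and other peptides, had 2.54, 8.14, 4.78 and 5.7 CPM with macrophages and 49.1, 41.7, 41.2 and 86.1 CPM without cells (log2 fold change -3.36 ± 0.34 (SE), adjusted p = 0.00169). All 3 genes were higher in every cell-free library than in any library with macrophages. Slc28a2, a nucleoside transporter, had 6.27, 8.35, 5.04 and 6.81 CPM with macrophages and 25.2, 18.8, 21.1 and 23.6 CPM without cells (log2 fold change -1.75 ± 0.15 (SE), adjusted p = 0.000917). Kdr, a receptor of vascular endothelial growth factor, had 3.25, 4.6, 3.38 and 4.92 CPM with macrophages and 17.2, 13.6, 14.6 and 20.9 CPM without cells (log2 fold change -2.04 ± 0.18 (SE), adjusted p = 0.000917). Of the 9 tested endothelial markers, Kdr alone fell and Pecam1 alone rose, at 1.25 to 2.64 CPM with macrophages and 0.19 to 0.826 CPM without cells (adjusted p = 0.043, call lost in 6 of 8 fits without 1 library, adjusted p up to 0.138).

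CC chemokines, which draw monocytes and lymphocytes, were mostly lower. Of 15 tested chemokines and receptors of this family 7 fell and 1 rose, and the median log2 fold change was -1.40. The summed level of the list was 359, 454, 314 and 472 CPM in cores with macrophages, against 1144, 842, 1015 and 1729 CPM in cell-free cores, with no overlap, and between 4 (without macrophages replicate 3) and 8 (without cell-free replicate 4) of the 15 fell when 1 library was left out. Ccl4, a chemoattractant of monocytes and T cells, was at 1.72, 3.6, 2.05 and 4.15 CPM in cores with macrophages, against 16.8, 23.6, 21 and 47.4 CPM in cell-free cores (log2 fold change -3.25 ± 0.37 (SE), adjusted p = 0.00262). Ccl5, which attracts T cells and monocytes, was at 6.83, 12.5, 6.54 and 12.7 CPM in cores with macrophages, against 42.1, 67.9, 29.1 and 163 CPM in cell-free cores (log2 fold change -2.97 ± 0.51 (SE), adjusted p = 0.0108). The remaining ligands that fell were Ccl9 (log2 fold change -2.32, adjusted p = 0.00366), Ccl12 (-2.29, adjusted p = 0.00221), Ccl3 (-2.33, adjusted p = 0.0113), Ccl2 (-1.46, adjusted p = 0.0347) and Ccl6 (-1.40, adjusted p = 0.0406). The calls of Ccl2 and Ccl6 were each lost in 5 of 8 fits without 1 library, and that of Ccl6 with the replicate block (adjusted p = 0.0781). Of 13 tested CXC chemokines and receptors the interferon-induced Cxcl9 fell (0.145 to 0.26 CPM with macrophages and 0.391 to 1.39 CPM without cells, adjusted p = 0.0199, call lost in 5 of 8 fits without 1 library, adjusted p up to 0.063). With the replicate block Cxcl10 (log2 fold change -1.41, adjusted p = 0.00875) and Cxcl13 (-1.63, adjusted p = 0.00302) also fell and Cxcl5 (1.48, adjusted p = 0.0447) rose.

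Genes of uptake and lipid handling were lower in smaller numbers. Of 18 receptors and effectors of phagocytosis 6 fell and none rose (median log2 fold change -0.37), among them Msr1, the phosphatidylserine receptor Havcr2 at 9.96 to 16.9 CPM with macrophages and 31 to 44.2 CPM without cells (adjusted p = 0.0033), the integrin Itgax at 5.15 to 10.6 CPM with macrophages and 20.9 to 56.3 CPM without cells (adjusted p = 0.0102) and the GTPase Rac2 at 24.6 to 45.3 CPM with macrophages and 54.2 to 77.7 CPM without cells (adjusted p = 0.0187, call lost in 2 of 8 fits without 1 library, adjusted p up to 0.0776). The count of decreases was 3 without cell-free replicate 2 or macrophages replicate 3, and 7 without macrophages replicate 4. Of 30 lysosomal and lipid genes, 4 fell and Apoe alone rose. The fatty acid receptor Cd36 was at 50.6, 123, 144 and 117 CPM in cores with macrophages, against 254, 257, 279 and 446 CPM in cell-free cores (log2 fold change -1.51 ± 0.30 (SE), adjusted p = 0.0181). Also lower were Lpl, lipoprotein lipase (44.9 to 94 CPM with macrophages and 111 to 266 CPM without cells, adjusted p = 0.0321) and Plin2, which coats lipid droplets (log2 fold change -0.78, adjusted p = 0.0346). The calls of Lpl and Plin2 were lost in 6 and 5 of the 8 fits without 1 library, and 9 members of this list fell with the replicate block, 8 without macrophages replicate 4 and 1 without cell-free replicate 2 or 4 or macrophages replicate 3. None of 14 tested cathepsins was called, 13 were lower, and Ctsz fell with the replicate block. Of 15 complement genes the anaphylatoxin receptors C5ar1 (53.2 to 101 CPM with macrophages and 127 to 203 CPM without cells, adjusted p = 0.0106) and C3ar1 (86.5 to 184 CPM with macrophages and 246 to 290.4 CPM without cells, adjusted p = 0.0181, and 0.0743 without macrophages replicate 3) fell, and C4b rose with the replicate block.

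Enzymes that release and convert arachidonic acid were split. Pla2g4a, the phospholipase that releases it, had 22.2, 36.3, 26 and 26.4 CPM with macrophages and 60.6, 55.5, 49.8 and 87.6 CPM without cells (log2 fold change -1.19 ± 0.18 (SE), adjusted p = 0.00748). Alox5, the first enzyme of leukotriene synthesis, had 14.1, 24, 16.4 and 19.2 CPM with macrophages and 54.9, 48.5, 33.2 and 66.3 CPM without cells (log2 fold change -1.46 ± 0.21 (SE), adjusted p = 0.00538), and its partner Alox5ap averaged 59.3 ± 18.7 CPM with macrophages and 132 ± 35.2 CPM without cells (SD, n = 4 each, adjusted p = 0.0214, call lost in 4 of 8 fits without 1 library, adjusted p up to 0.0824). The constitutive cyclooxygenase Ptgs1 rose, at 5.04 to 10.7 CPM with macrophages and 2.71 to 4.44 CPM without cells (adjusted p = 0.0302, call lost in 5 of 8 fits without 1 library, adjusted p up to 0.0783). The other 13 of the 17 tested prostaglandin and leukotriene genes were not called.

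Interferon-stimulated genes leaned lower without many calls. Of 41 tested, 38 were lower, the median log2 fold change was -0.41, and 3 fell: Irf7 (log2 fold change -1.15, adjusted p = 0.0273), Ifi27l2a (-1.23, adjusted p = 0.0338) and Oasl1 (-1.14, adjusted p = 0.041). Of all genes tested, 50.8% were higher and 3.85% fell. With the replicate block 10 fell, and without cell-free replicate 1, 2 or 4 or macrophages replicate 1 or 3 none did. Targets of the oxidative stress factor NRF2 included 3 decreases among 23 tested, namely Hmox1, the peroxiredoxin Prdx1 (256 to 443 CPM with macrophages and 689.6 to 1369 CPM without cells, adjusted p = 0.0187) and Gclm of glutathione synthesis (69.3 to 89.8 CPM with macrophages and 101 to 153 CPM without cells, adjusted p = 0.0261, call lost in 5 of 8 fits without 1 library, adjusted p up to 0.0999). With the replicate block 5 fell, Ftl1 and Gpx1 being the further members.

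Genes of the cell cycle were lower throughout. All 40 members of the list were lower with macrophages, 30 fell, none rose, and the median log2 fold change was -1.29. Their summed level was 521, 613, 419 and 518 CPM in cores with macrophages, against 1067, 1219, 866 and 1977 CPM in cell-free cores, with no overlap. Ccnd1, the cyclin that carries growth factor signals into the cycle, was at 62.8, 87.1, 64.8 and 54.1 CPM in cores with macrophages, against 188, 275, 196 and 454 CPM in cell-free cores (log2 fold change -2.05 ± 0.27 (SE), adjusted p = 0.00377). Mki67, the proliferation marker, was at 67.1, 81.5, 40.4 and 64.4 CPM in cores with macrophages, against 170.1, 176, 115 and 248 CPM in cell-free cores (log2 fold change -1.48 ± 0.24 (SE), adjusted p = 0.00947). For both genes cell-free replicate 4 was the highest library. Cenpe, a kinetochore motor, had 11.2, 11.6, 7.22 and 8.88 CPM with macrophages and 24.2, 25.8, 20.3 and 39.8 CPM without cells (log2 fold change -1.50 ± 0.21 (SE), adjusted p = 0.00538), and the spindle factor Tpx2 had 7.39, 8.72, 5.14 and 8.4 CPM with macrophages and 17.5, 21.2, 16.4 and 37.2 CPM without cells (log2 fold change -1.64 ± 0.26 (SE), adjusted p = 0.00907). The count of decreases ranged from 10 without macrophages replicate 3 to 32 without cell-free replicate 3, and was 13 without macrophages replicate 1 and 15 without cell-free replicate 2. Zranb3, a helicase that restarts stalled replication forks, was outside the list and showed one of the largest decreases, at 12.4, 16.6, 11.5 and 13.7 CPM in cores with macrophages, against 81.2, 80.4, 88.5 and 161 CPM in cell-free cores (log2 fold change -2.92 ± 0.23 (SE), adjusted p = 0.000917). The 16 other cores of the series had at least 50.9 CPM of Zranb3. Dusp6, a phosphatase that is induced by ERK signalling and limits it, was at 44.1, 48.4, 39.7 and 46.2 CPM in cores with macrophages, against 104, 88.1, 85.4 and 117 CPM in cell-free cores (log2 fold change -1.15 ± 0.11 (SE), adjusted p = 0.00122).

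Promoters of Mki67 (chr7:135716330-135716629 (minus strand), GRCm38.p6) and Cenpe (chr3:135212313-135212612 (plus strand)) are shown because 30 of the 40 cell cycle genes fell. Capitals mark the CCAAT box and the letters TTTGAA of the cell cycle homology region, each on either strand, 2 elements known from promoters of mitotic genes.
Mki67: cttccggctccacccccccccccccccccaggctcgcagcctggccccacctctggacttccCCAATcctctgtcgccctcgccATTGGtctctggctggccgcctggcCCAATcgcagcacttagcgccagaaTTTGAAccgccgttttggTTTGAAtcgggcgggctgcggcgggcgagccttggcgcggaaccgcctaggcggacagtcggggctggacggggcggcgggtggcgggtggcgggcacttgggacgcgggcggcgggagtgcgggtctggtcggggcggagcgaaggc
Cenpe: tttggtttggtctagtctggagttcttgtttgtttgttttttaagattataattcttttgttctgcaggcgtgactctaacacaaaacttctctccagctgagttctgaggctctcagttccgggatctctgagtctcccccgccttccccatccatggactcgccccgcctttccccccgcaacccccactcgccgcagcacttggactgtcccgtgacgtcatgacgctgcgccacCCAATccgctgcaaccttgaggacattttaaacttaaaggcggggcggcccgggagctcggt
The window of Mki67 held 5 matches and that of Cenpe 1, a CCAAT. Among the 32 cell cycle promoters in the table, 25 (78.1%) held CCAAT and 15 (46.9%) held TTTGAA, beside 37.9% and 18.1% of all promoters, and these motifs were chosen after the values were seen. Another motif chosen in this way, CACCCCAC for cholesterol synthesis, was in 1 of 13 promoters (7.69%), beside 2.77% of all promoters.

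Cholesterol synthesis was mostly lower by a small margin, with log2 fold changes of its members from -0.79 to 0.17. Of 20 tested genes 12 fell, none rose and 19 were lower, with a median log2 fold change of -0.61. The summed level was 1207, 1717, 1268 and 1309 CPM in cores with macrophages, against 2203, 1895, 1991 and 1853 CPM in cell-free cores, with no overlap. Nsdhl, an enzyme that removes methyl groups from sterols, was at 19.6, 27.7, 18 and 18.9 CPM in cores with macrophages, against 38.9, 33.4, 37.4 and 34.5 CPM in cell-free cores (log2 fold change -0.78 ± 0.13 (SE), adjusted p = 0.0107). Cyp51 (60.2 to 100.3 CPM with macrophages and 121 to 129 CPM without cells, adjusted p = 0.0145) and Msmo1 (57.4 to 89.4 CPM with macrophages and 104 to 122 CPM without cells, adjusted p = 0.0155), which act in the same stretch of the pathway, also fell. Without macrophages replicate 3 the adjusted p was 0.0616 for Cyp51 and 0.0678 for Msmo1. The list kept 2 decreases without macrophages replicate 3 and 5 without macrophages replicate 1, cell-free replicate 1 or cell-free replicate 2. It had 15 decreases without macrophages replicate 2, whose summed level was the highest with macrophages. Of 19 glycolysis genes, the aldolase Aldoc (4.81 to 12.1 CPM with macrophages and 16.1 to 22.9 CPM without cells, adjusted p = 0.0149) and the phosphofructokinase Pfkp (57.2 to 69.6 CPM with macrophages and 82.3 to 124 CPM without cells, adjusted p = 0.0168) fell, beside 9 with the replicate block, 10 without macrophages replicate 2 and 0 without macrophages replicate 3.

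**Figure D4:**
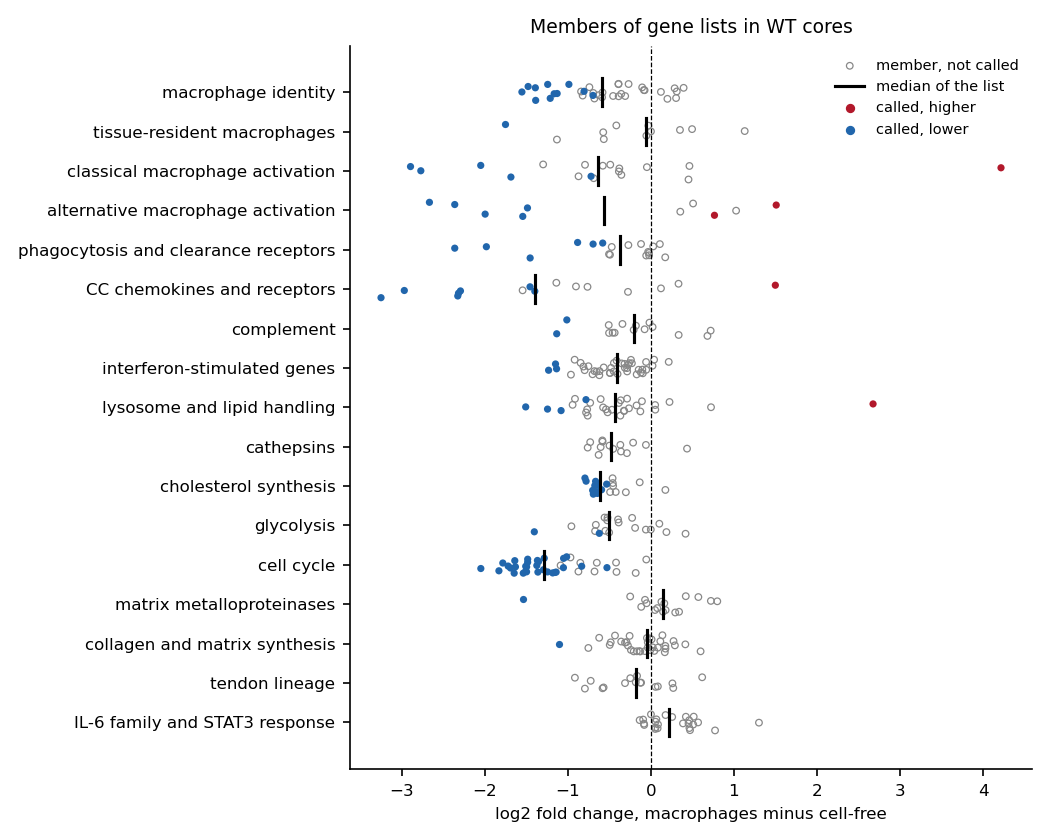
Log2 fold change of the tested members of 17 gene lists in WT cores with macrophages minus cell-free WT cores; each point is a gene, filled where it was called (red higher, blue lower) and open where it was not, and black bars are list medians. Cell cycle genes all lie left of 0 (median -1.29), CC chemokines reach furthest left (median -1.40), and collagen, tendon lineage and matrix metalloproteinase genes centre near 0.

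The urokinase system and Adam8 fell, while 1 of 17 matrix metalloproteinases was called, beside 4.6% of all genes tested in either direction. Plau, the urokinase that converts plasminogen to plasmin, was at 30.8, 51.1, 50.03 and 55.3 CPM in cores with macrophages, against 239.8, 209, 300.5 and 476 CPM in cell-free cores (log2 fold change -2.71 ± 0.27 (SE), adjusted p = 0.00149). Its receptor Plaur was at 6.49, 6.86, 5.63 and 7.58 CPM in cores with macrophages, against 17.5, 17.3, 14 and 40.0 CPM in cell-free cores (log2 fold change -1.74 ± 0.30 (SE), adjusted p = 0.0108). Both were lower in all 4 libraries with macrophages than in any of the 16 other cores. The protease inhibitors Cstb (-0.82, adjusted p = 0.0265, call lost in 4 of 8 fits without 1 library, adjusted p up to 0.0995) and Serpine2 (-1.29, adjusted p = 0.034, call lost in 5 of 8 fits without 1 library, adjusted p up to 0.105) also fell (log2 fold changes), as 4 of 14 tested genes of this list. Adam8, a leukocyte metalloprotease, was at 165, 234, 163 and 239.7 CPM in cores with macrophages, against 729, 699, 675 and 1065 CPM in cell-free cores (log2 fold change -1.98 ± 0.19 (SE), adjusted p = 0.00124). Of the 23 ADAM and ADAMTS genes, Adam19 (log2 fold change 0.66, adjusted p = 0.0288, call lost in 5 of 8 fits without 1 library, adjusted p up to 0.0832) and Adamts6 (0.57, adjusted p = 0.0469, call lost in 6 of 8 fits without 1 library, adjusted p up to 0.129) rose. Of 17 matrix metalloproteinases none rose and 1 fell, Mmp12, the macrophage elastase, at 37.2, 77.9, 78 and 60.1 CPM in cores with macrophages, against 86.1, 177, 144 and 332 CPM in cell-free cores (adjusted p = 0.0401, call lost in 6 of 8 fits without 1 library, adjusted p up to 0.106). Mmp13, the main collagenase of rodents, was at 3313, 4422, 4110.3 and 4344 CPM in cores with macrophages, against 2289, 2517, 2890.0 and 3175 CPM in cell-free cores, and its levels were apart but were not called (log2 fold change 0.57 ± 0.20 (SE), adjusted p = 0.125). It was called higher with DESeq2 (adjusted p = 0.00312), with the run code as a block (0.0488) and with all 5 core groups in 1 fit (0.0478).

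The AP-1 site TGACTCA, searched on either strand, was present in 4 of 14 metalloproteinase promoters in the table (28.6%), beside 5.17% of all promoters.

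Matrix and tendon genes gave few calls. Of 35 collagen and matrix synthesis genes 1 fell, the minor fibrillar collagen Col5a3 at 49.5, 87.6, 52.1 and 31.7 CPM in cores with macrophages, against 97.5, 139, 106 and 131 CPM in cell-free cores (adjusted p = 0.034, call lost in 5 of 8 fits without 1 library, adjusted p up to 0.115), and the median log2 fold change was -0.048. Col1a1, the main collagen of tendon, was at 5440.4, 6843, 9297 and 3848 CPM in cores with macrophages, against 7617, 5871, 4669 and 10484 CPM in cell-free cores (log2 fold change -0.17 ± 0.35 (SE), adjusted p = 0.799). None of 16 tendon lineage genes was called (median log2 fold change -0.17). Scx, the transcription factor of tendon cells, had 9.27 to 12.9 CPM with macrophages and 10.8 to 13.2 CPM without cells (adjusted p = 0.595), and Tnmd, a membrane glycoprotein of mature tendon, had 66.3 to 231 CPM with macrophages and 112 to 481 CPM without cells (adjusted p = 0.34). Likewise none of 12 fibroblast and none of 17 myofibroblast genes was called, and Vim of the myofibroblast list fell with the replicate block.

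The gene of interleukin-6 was not called. Il6 was at 13.9, 9.08, 3.64 and 8.5 CPM in cores with macrophages, against 7.44, 1.93, 11.9 and 4.12 CPM in cell-free cores (log2 fold change 0.45 ± 0.51 (SE), adjusted p = 0.623), so that levels overlapped and the standard error exceeded the estimate. Of 24 genes of the IL-6 family and its STAT3 response none was called, although 20 were higher (median log2 fold change 0.22). Of all genes tested 50.8% were higher. Socs3, the feedback inhibitor of STAT3 signalling, had 180.4, 167, 176 and 192 CPM with macrophages and 121, 138, 147 and 110.3 CPM without cells (log2 fold change 0.46 ± 0.11 (SE), adjusted p = 0.0413), past the adjusted p and below the fold threshold, without overlap. With the replicate block 2 of the 24 rose, the acute phase glycoprotein Lrg1 (log2 fold change 1.27, adjusted p = 0.0357, against 0.0534 without it) and the cytokine Il11 (0.77, adjusted p = 0.0344, against 0.168). Lrg1 was also called with DESeq2, with the run code as a block, with all 5 core groups in 1 fit and without cell-free replicate 3 or macrophages replicate 4 (adjusted p 0.0171 to 0.0497). Il6ra, the ligand-binding receptor chain, had 29.2 to 38.8 CPM with macrophages and 17.1 to 31 CPM without cells (adjusted p = 0.116). Among 28 growth factors 3 rose, including Angptl4 and Igf2 (log2 fold change 1.12, adjusted p = 0.0313, call lost in 6 of 8 fits without 1 library, adjusted p up to 0.0889), and 2 fell. These were Pdgfb, a mitogen of fibroblasts (14.9 to 17 CPM with macrophages and 20.7 to 34.1 CPM without cells, adjusted p = 0.0109), and Areg, a ligand of the epidermal growth factor receptor that was below 1 CPM in all 8 libraries.

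The same cores were also set against WT cores with fibroblasts. There 865 of 16370 genes (5.28%) rose and 901 (5.5%) fell with macrophages. Without 1 library the increases ranged from 354 (without fibroblasts replicate 3) to 1412 (without macrophages replicate 4). Of the genes that rose relative to cell-free cores, 95 (76.6%) also rose relative to cores with fibroblasts, and 400 of those that fell (63.2%) also fell. They made up 11% of the increases and 44.4% of the decreases relative to fibroblasts. Both comparisons use the same 4 macrophage libraries, so their overlap is a description. Fcrls (log2 fold change 4.73 ± 0.32, adjusted p = 0.000247), Cd5l (5.07 ± 0.51, adjusted p = 0.000958) and Apoe (2.93 ± 0.34, adjusted p = 0.00149) were higher than with fibroblasts too, and Zranb3 (-2.27 ± 0.15, adjusted p = 0.000247), Plau (-2.16 ± 0.19, adjusted p = 0.000475) and Tnf (-2.14 ± 0.16, adjusted p = 0.000333) were lower. In contrast, Tgm2 (0.21 ± 0.087, adjusted p = 0.102) and Marco (-0.64 ± 0.41, adjusted p = 0.278) were not called relative to fibroblasts. Collagen and matrix synthesis genes fell in 19 of 35 cases relative to fibroblasts, beside 1 of 35 relative to cell-free cores, and cell cycle genes fell in 30 of 40 in each comparison. CC chemokines and receptors fell in 9 of 15 cases and cholesterol synthesis genes in 16 of 20 relative to fibroblasts. Of 35 macrophage identity genes, 2 rose and 7 fell relative to fibroblasts. Their median log2 fold change was -0.078, beside -0.59 relative to cell-free cores. Of 41 interferon-stimulated genes, 3 rose and none fell relative to fibroblasts. Their median was 0.071, beside -0.41 relative to cell-free cores.

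Markers of other cell types gave few calls. Of 7 tested skeletal muscle genes the myosin Myh4 rose, at 2.8 to 5.5 CPM with macrophages and 0.634 to 2.11 CPM without cells (adjusted p = 0.0248, call lost in 5 of 8 fits without 1 library, adjusted p up to 0.0845), and the summed level of the list was 30.9 to 78.6 CPM with macrophages and 21.1 to 40.0 CPM without cells. None was called among 6 inflammatory monocyte, 2 mast cell, 7 Schwann cell, 9 smooth muscle and pericyte, 11 chondrocyte, 2 keratinocyte and 2 adipocyte markers, 7 genes of MHC class II presentation or 15 Wnt and BMP antagonists. With the replicate block the adipocyte marker Fabp4 and the class II genes Cd74 and H2-DMb1 fell, and the chondrocyte marker Sox5 rose. Single or few decreases remained elsewhere: the osteoclast list had 3 of 14 (the receptor Tnfrsf11a, log2 fold change -0.77, adjusted p = 0.00877, with Ostm1, call lost in 2 of 8 fits without 1 library, adjusted p up to 0.0522, and Clcn7, call lost in 6 of 8 fits without 1 library, adjusted p up to 0.116), the immediate early genes had 1 of 23 (Atf3, -1.07, adjusted p = 0.0153, call lost in 2 of 8 fits without 1 library, adjusted p up to 0.0611) and the NF-kB targets had 1 of 21 (Traf1, -0.80, adjusted p = 0.0149, call lost in 2 of 8 fits without 1 library, adjusted p up to 0.0674). Both shares are close to the 3.85% of all genes that fell. With the replicate block 3 immediate early genes rose (Fos, Ier2 and Zfp36) and 1 further NF-kB target rose (Bcl3).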

How the data were processed

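Total RNA was depleted of ribosomal RNA and sequenced as stranded libraries by the authors, who accepted an RNA integrity number of 2 or more. The deposited values are estimated counts per gene made by the authors with kallisto 0.46.1 on GRCm39 (25700 genes, whole numbers). Per library they summed to 20360289 to 34240500 in the 8 libraries compared. Genes were filtered with filterByExpr, scaled with trimmed means and tested with the quasi-likelihood test of edgeR 4.0.16 (R 4.3.3) on the libraries of the 2 groups compared, with Benjamini-Hochberg adjustment. The SE is the log2 fold change divided by the root of F. DESeq2 1.42.0 was an alternative. Counts were also simulated with the same library sizes, 200 changed genes and no pairing of replicates. There 9.09% of genes changed by a log2 fold change of 0.5 passed an adjusted p under 0.05 in the right direction. At 1 it was 74.6% and at 2 it was 98.5%. The fold threshold of the calls was not applied there.

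Same-numbered replicates deviated together. Residual correlations were 0.204, 0.194, 0.196 and 0.341 for macrophages and cell-free, and 0.174 to 0.253 for macrophages and fibroblasts. Same-numbered libraries also shared their sex (read from Y-linked genes) and run code. These correlations therefore do not show that such libraries came from the same mouse. Counts, SE and adjusted p come from fits without a block unless another fit is named. Blocked values are given beside the results they change by more than 1.5 times or in a named call. Over all list members 141 genes were called with and without the block, 50 only with it and 2 only without it. Sex was read from Y-linked genes and Xist was not analysed here.

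The gene lists and named genes were chosen with earlier results of these data known. Named were the 15 genes of lowest p and the 8 of largest log2 fold change called in each direction with a mean log2 CPM of at least 1 (without gene models lacking a proper name and without Abhd1), Il6, and up to 4 genes of lowest p per list. Not all of them are described, and the results of some genes are not reported here. Il1b, Clec10a, Lyz2, Adgre1, Csf1r, Cd68, C1qa, Mertk, Col1a1, Scx, Mgl2, Cd80, Igf2, Plin2, Ccl3, Ccl2, Ccl6, Sirpa and genes named only for a call with the replicate block fall outside that rule and were named after their values were seen. Promoters came from the RefSeq table of GRCm38.p6.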

Additional observations from a re-analysis of the deposited data

Results flagged for a closer look

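In 13 of 232 sets of 4 libraries (4 of 116 with macrophages and 9 of 116 without cells) 1 library lay apart from the other 3 by Dixon's ratio, above its 95% critical value, which chance alone passes in about 5% of sets. Cell-free replicate 4 supplied 7 of them, each time as the highest library: Zranb3 at 160.7 CPM, Adam8 at 1065 CPM, Tnf at 72.0 CPM, Cd36 at 446 CPM, Oasl1 at 7.90 CPM, Plaur at 40.0 CPM and Ccl2 at 549 CPM. The other cell-free values were Vav2 at 16.3 CPM in replicate 3 and Sirpa at 786 CPM in replicate 2. With macrophages, Slco2b1 (9.32 CPM) and Apoe (2436 CPM) were highest in replicate 4, and Acod1 (6.401 CPM) and Nsdhl (27.7 CPM) were highest in replicate 2. The calls of Zranb3, Adam8, Tnf, Vav2, Slco2b1, Apoe, Acod1 and Nsdhl were kept in all 8 fits without 1 library, while those of Ccl2, Oasl1 and Sirpa were lost in 5, 7 and 7 of them.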

How the results depend on the processing

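Relative to cell-free cores, the counts of genes that rose and fell were 283 and 906 with DESeq2, 240 and 809 with the replicate block, 301 and 810 with a block for the run code (taken from titles), and 27 and 171 at an adjusted p under 0.01. Without 1 library they ranged from 58 to 226 and from 233 to 829. The share of called genes that were higher was 16.4%, against 27.1% with the run code block. Relative to cores with fibroblasts, 1449 rose and 1751 fell without a fold threshold, 223 and 342 at an adjusted p under 0.01, and 354 to 1412 and 606 to 1111 without 1 library. Leaving out 1 library turned the sign of some small values. The log2 fold change ranged from -0.10 to 0.36 for Csf1r and from -0.0013 to 0.20 for Mertk (both lowest without macrophages replicate 4), from -0.38 to 0.13 for C1qa (0.0124 without cell-free replicate 1, 0.022 without macrophages replicate 3), and from -0.39 to 0.0725 for Col1a1 (highest without cell-free replicate 4, and 0.0038 without macrophages replicate 4). The list median ranged from -0.31 to 0.0582 for tissue-resident macrophages and from -0.16 to 0.0615 for collagen and matrix synthesis (both highest without macrophages replicate 1, and 0.0027 for collagen and matrix synthesis without cell-free replicate 4). It was 0.23 for alternative activation with no filter on low counts. The cause was not tested. Calls of 46 named genes were lost in at least 1 fit without 1 library, and those of 16 in at least 1 other setting. In simulated counts of this depth 9.09% of changes of 0.5 (log2) passed the adjusted p, without the fold threshold of the calls.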
